A study of Mus musculus with 24 samples.

Results

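Transcripts of 6 members of the aquaporin family, Aqp1, Aqp2, Aqp3, Aqp5, Aqp7 and Aqp11, were followed in differentiating brite adipocytes of the mouse after knockdown of the long noncoding RNA Ctcflos. The members were named with earlier results of these data known, and the entry that stands for each gene was chosen by its mean RPKM (reads scaled to transcript length and to the mapped reads of the library) over the 24 libraries, with curated RefSeq mRNAs taken first. All 6 members were found among 52089 gene symbols, and 3 of them had enough reads to be tested between knockdown and control at 72 h. Their levels are a description of genes picked in this way, and the test values below are no independent evidence for the choice.

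The cells were primary preadipocytes from the stromal-vascular fraction of inguinal white fat of 129SvEv mice, brought to differentiate with rosiglitazone, which turns them toward the heat-producing brite state. Every culture was reverse transfected at 50 nM with an LNA gapmer, a short antisense oligonucleotide that leads RNase H to its target. The gapmer was directed at Ctcflos in the groups KD 24 h and KD 72 h and was non-targeting in NC 24 h and NC 72 h, the hours giving the time from transfection to harvest. Each group held 6 libraries. The study calls its replicates biological, but no label tells whether libraries came from separate cultures, so that the p-values measure the spread between libraries, which may be technical.

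Libraries held between 1391790 and 5423633 mapped reads, with KD 24 h replicate 6 the shallowest. NC 72 h replicates 2 and 3 differed by less than the sampling noise and were counted as 1 sample (n = 5). The libraries fell into 2 sets that deviated together from their group means, one of 16 and one of 8 libraries. Each group had 2 libraries of the smaller set, which were KD 24 h replicates 3 and 4, NC 24 h replicates 5 and 6, KD 72 h replicates 5 and 6, and NC 72 h replicates 4 and 5. What separates the sets is not given in the labels. The sets were formed from the values of these same libraries, which narrows the spread within each. The adjusted p-values given below for fits within a set may therefore be too small and are a description only. The RefSeq transcript of Ctcflos measured 0 to 0.620 RPKM in KD 24 h and 0.178 to 1.38 RPKM in NC 24 h, and its ranges at 72 h, 0 to 0.517 RPKM in KD and 0.846 to 1.75 RPKM in NC, did not overlap. The Ensembl transcript ENSMUST00000144256, the isoform at which the study's first gapmer was aimed, overlapped at both times, with 0 to 0.961 RPKM in KD 24 h, 0.159 to 0.792 RPKM in NC 24 h, 0 to 0.494 RPKM in KD 72 h and 0 to 2.32 RPKM in NC 72 h, from at most 32 reads in a group. The labelled cell type was met by the sum of its markers, since 8 fat cell genes summed to between 27581 and 53664 RPKM in every library. Most of this sum was Fabp4, and Lep, another of the 8, averaged at most 0.0612 RPKM in any group.

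Aquaporins are membrane channels that let water pass, and the aquaglyceroporins among them, such as Aqp3 and Aqp7, also pass glycerol. In fat cells Aqp7 is known as the channel through which glycerol leaves when triglycerides are broken down. Aqp2 is known from the collecting duct of the kidney, where vasopressin and cAMP bring it to the cell surface. Aqp1 is a water channel of endothelium and red blood cells, Aqp5 one of gland and airway epithelium, and Aqp11 an intracellular member that stands apart from the others in sequence. The pore of each channel is lined by a pair of short boxes, in the classical water channels asparagine, proline and alanine, and by textbook knowledge both boxes of Aqp7 and the first of Aqp11 depart from that form. The coding stretch around the first box is printed from the GENCODE transcripts, with the 9 bases of the box in capitals, because it shows this difference between the classical channels, the glycerol channel and Aqp11.
Aqp1: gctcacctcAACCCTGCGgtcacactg
Aqp2: gcccacatcAACCCTGCTgtgactgtg
Aqp5: ggccacatcAATCCGGCCattactctg
Aqp3: gcccacttgAACCCCGCTgtgaccttc
Aqp7: gcccacatgAATGCCGCAgtgactttc
Aqp11: acagctagcAACCCGTGCggcgtgatg
The second box of Aqp2 and of Aqp7 follows in the same form.
Aqp2 second box: tgctccatgAATCCAGCCcgctccctg
Aqp7 second box: tatgcaatcAACCCATCCcgtgacctg

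In the control cells the glycerol channel was by far the most abundant aquaporin transcript. Aqp7 (NM_007473) averaged 40.3 ± 3.3 RPKM (SD, n = 6) in NC 24 h, ahead of Aqp11 (NM_175105) with 8.07 ± 3.20 RPKM, and at 72 h the order was the same, with 30.3 ± 1.7 RPKM for Aqp7 and 14.1 ± 5.6 RPKM for Aqp11 (SD, n = 5). Aqp3 (NM_016689), Aqp5 (NM_009701), Aqp2 (NM_009699) and Aqp1 (NM_007472) each averaged at most 0.527 RPKM in both control groups. In NC 24 h the ranges of these 4 genes overlapped one another, and in NC 72 h those of Aqp1, Aqp3 and Aqp5 did, while Aqp2 was at 0. RPKM is a level per length of transcript, but the reads came from the ends of transcripts, so that levels of different genes are only roughly comparable.

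Knockdown lowered Aqp7 at both times. At 24 h replicates 1 to 6 measured 14.3, 23.1, 28.7, 33.7, 19.0 and 11.1 RPKM in KD and 44.5, 37.7, 38.0, 37.9, 38.8 and 44.6 RPKM in NC. At 72 h they measured 20.6, 22.1, 21.5, 23.1, 17.6 and 15.5 RPKM in KD and 30.4, 30.2, 31.0, 31.4, 31.6 and 27.3 RPKM in NC. All KD libraries lay below all NC libraries of their time, and the KD libraries of 24 h were spread most widely. How many of all entries separated in this way was not counted. The lack of overlap, here and for other genes below, therefore describes the values and does not set a gene apart. The group means were 21.6 ± 8.6 RPKM (SD, n = 6) in KD 24 h and 20.1 ± 2.9 RPKM (SD, n = 6) in KD 72 h, or 53.8% and 66.4% of the controls.

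In the fit across all entries (limma on the log2 of scaled RPKM + 0.1, with Benjamini-Hochberg adjustment), the log2 difference of Aqp7 between KD and NC was -1.05 ± 0.25 (SE) at 24 h, with an adjusted p of 0.010, and -0.85 ± 0.15 at 72 h, with an adjusted p of 0.0010. Of the 2 members tested at 24 h, Aqp7 was the one called lower, beside 11.6% of all 52094 entries called lower and 11.1% called higher. At 72 h 1 of the 3 members tested was called lower and 1 higher, beside 12.1% and 10.4% of 54252 entries. Calls were common among all entries, so these counts do not set the members apart. The knockdown difference of Aqp7 was not shown to change between the times (interaction 0.21 ± 0.32, adjusted p = 0.84). Fewer cells that make a transcript and less of it per cell cannot be told apart in these bulk libraries.

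The lower level of Aqp7 in KD 24 h differed between the sets of libraries. The 2 KD libraries of the smaller set measured 28.7 and 33.7 RPKM, above the 4 of the larger set at 11.1 to 23.1 RPKM, whereas at 72 h the 2 libraries of the smaller set were the lowest, at 15.5 and 17.6 RPKM. Within the larger set the log2 difference was -1.39 at 24 h (adjusted p = 0.0033) and -0.64 at 72 h (adjusted p = 0.0031). Within the smaller set it was -0.40 at 24 h, which did not pass (adjusted p = 0.16), and -1.26 at 72 h (adjusted p = 0.0030). The difference between the sets was not tested, and the p-values within a set carry the limit given above. At 24 h the call was lost when replicate 1 was left out of both groups (-0.90, adjusted p = 0.052).

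**Figure D1:**
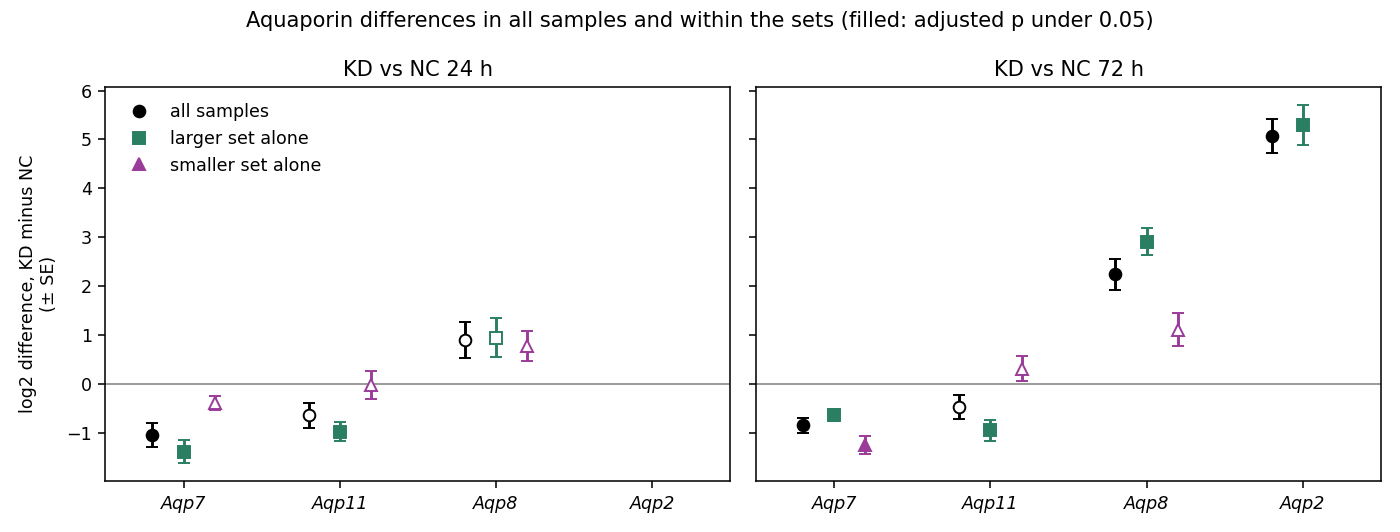
The plot of knockdown differences gives the fitted log2 difference, KD minus NC, on the vertical axis for Aqp7, Aqp11, Aqp8 and Aqp2, at 24 h on the left and 72 h on the right, for all samples and within each set of libraries, with bars of 1 SE and filled symbols for an adjusted p under 0.05. Aqp7 was below 0 in every fit shown, Aqp11 near or above 0 in the smaller set, and Aqp2 was tested at 72 h only, in all samples and in the larger set.

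With time in culture, Aqp7 declined in the control cells. NC 72 h lay at 75.1% of NC 24 h with no overlap between the libraries, and the log2 difference of -0.38 ± 0.09 (SE) was called (adjusted p = 0.014), beside 4.5% of 52806 entries called lower. It lost the call when replicate 1 was left out of both groups (-0.35, adjusted p = 0.062), when replicate 6 was (-0.32, adjusted p = 0.068) and in the larger set alone (-0.38, adjusted p = 0.052). In the knockdown cells the means of 24 h and 72 h were nearly level, with a log2 difference of -0.19 ± 0.28 that did not pass (adjusted p = 0.72), but within the smaller set it was -1.28 (adjusted p = 0.0012).

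Aqp2 behaved in the opposite way. In NC 72 h it had 0 reads in all 6 libraries, while KD 72 h replicates 1 to 6 measured 5.09, 3.02, 2.65, 6.60, 4.02 and 1.75 RPKM, from 28, 14, 15, 38, 19 and 10 reads. At 24 h the KD replicates measured 0, 0.168, 0.285, 0.269, 0.728 and 0 RPKM and the NC replicates 0, 0, 0, 0.169, 0.557 and 0 RPKM, from 10 and 5 reads in all. Reads of Aqp2 were thus seen in every library of KD 72 h and, apart from these, in 6 scattered libraries of 24 h with at most 5 reads each. The 6 libraries of NC 72 h together held 0 reads, which allows a level of up to about 0.116 RPKM (3 reads over the group, with the near-identical pair counted once, and counting error only).

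The mean of 3.86 ± 1.77 RPKM (SD, n = 6) in KD 72 h was at least 33.1-fold higher than that limit. The fitted log2 difference, 5.07 ± 0.34 (SE), depends on the pseudocount, since one group is at 0, and passed with an adjusted p of 9.95e-07. Aqp2 entered this fit only through KD 72 h, where 5 libraries reached the 10 reads the filter asks for at median depth, and it left the fit when NC 72 h replicates 2 and 3 were kept as separate samples or replicate 3 was left out. With no filter the difference was 5.08 (adjusted p = 1.8e-05). At 24 h the means of 0.242 RPKM in KD and 0.121 RPKM in NC did not differ beyond their spread (two-sided exact permutation p = 0.50, n = 6 and 6).

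Within the knockdown cells Aqp2 was higher at 72 h than at 24 h in every library, with means of 3.86 and 0.242 RPKM (two-sided exact permutation p = 0.0022, n = 6 and 6, the smallest this design can give). The knockdown difference at 72 h exceeded that at 24 h by 4.32 ± 0.76 (SE) on the log2 scale (interaction, adjusted p = 0.011, beside 0.121% of 59408 entries called in this direction). Here too Aqp2 entered the fit only through KD 72 h, the group where it was high. The call was lost when replicate 1, 2 or 4 was left out of all groups, with adjusted p-values of 0.12, 0.14 and 0.067 and differences of 4.08, 4.50 and 4.09. In the smaller set Aqp2 measured 4.02 and 1.75 RPKM in KD 72 h and 0 in NC 72 h, so that the direction was the same in both sets. In the larger set alone, where it again entered through KD 72 h, the difference was 5.29 (adjusted p = 9.1e-06).

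**Figure D2:**
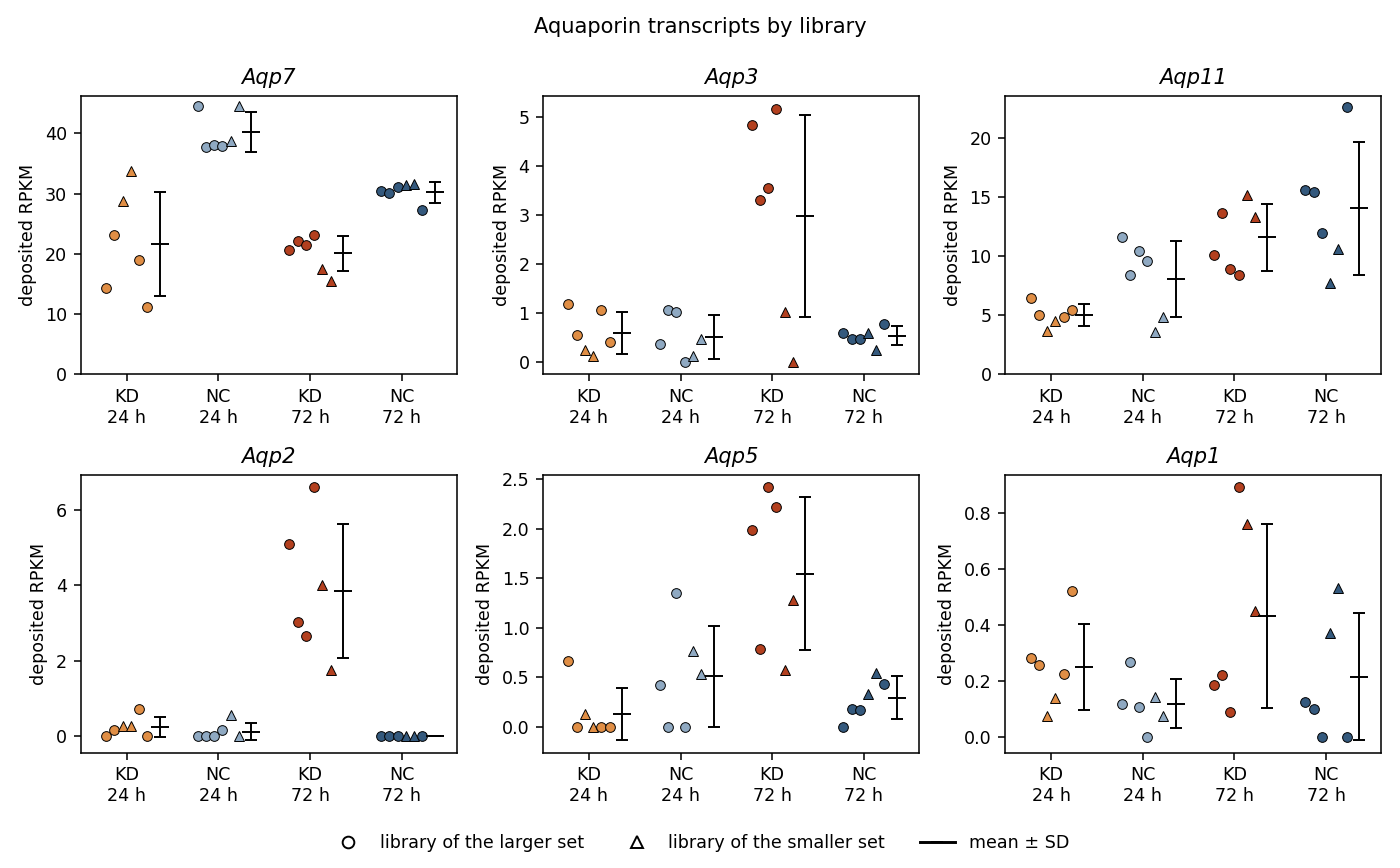
The plot of aquaporin levels by library gives deposited RPKM on the vertical axis, with its own scale for each gene, for the 4 groups, where each symbol is 1 library, circles and triangles are the larger and the smaller set, and the bar beside each group is the mean ± SD. Aqp7 lies lower in KD than in NC at both times, Aqp2 is at 0 in NC 72 h and between 1.75 and 6.60 RPKM in KD 72 h, and the 2 triangles of Aqp3 in KD 72 h sit apart from its 4 circles.

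Set side by side, the kidney water channel and the glycerol channel of fat cells moved in opposite directions at 72 h, from a mean of 0 in NC to 3.86 RPKM in KD for Aqp2 and from 30.3 to 20.1 RPKM for Aqp7. This contrast is a description, because the pair was picked with these results known. Even in KD 72 h Aqp7 was above Aqp2 in every library, the lowest Aqp7 value being 15.5 RPKM and the highest Aqp2 value 6.60 RPKM. Aqp2 held 6.94 ± 2.16% (SD, n = 6) of the summed RPKM of all aquaporins in KD 72 h and 0% in NC 72 h, while Aqp7 held 37.8 ± 3.6% and 63.6 ± 7.1%. The sum over all aquaporins was 53.6 ± 9.7 RPKM in KD 72 h and 47.8 ± 2.9 RPKM in NC 72 h, and at 24 h it was 35.5 ± 7.6 and 53.2 ± 5.4 RPKM. Shares and sums add levels of different genes, which are only roughly comparable here. Reads came from transcript ends but were divided by transcript length, so a read of Aqp2 (1416 bases) weighs more than a read of Aqp7 (2524 bases). The sums therefore do not show whether aquaporin transcripts as a whole differed at 72 h.

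**Figure D3:**
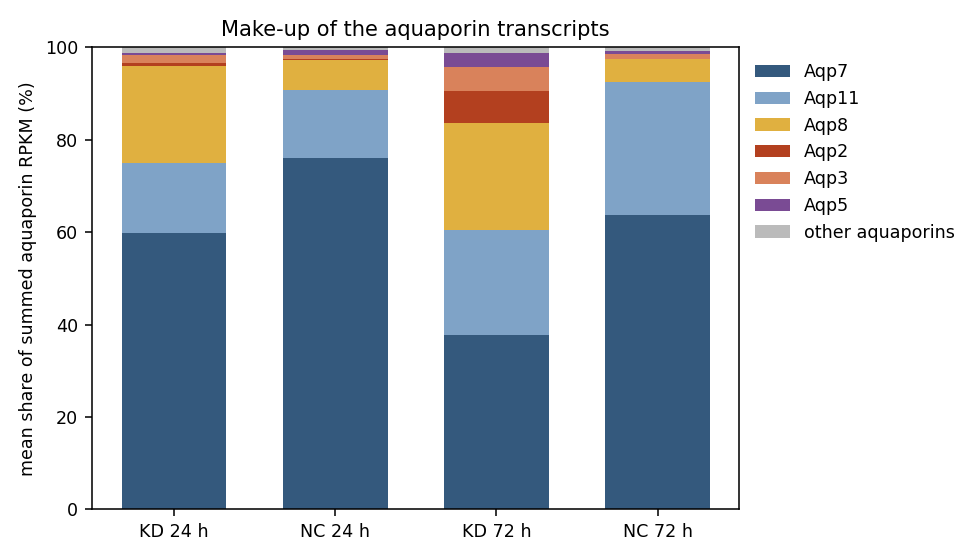
The plot of aquaporin make-up stacks the mean share of each gene in the summed aquaporin RPKM (vertical axis, percent) for the 4 groups. Aqp7 takes 76.0% in NC 24 h, 59.9% in KD 24 h, 63.6% in NC 72 h and 37.8% in KD 72 h, where Aqp8 (23.3%) and Aqp2 (6.94%) take more than in NC 72 h. The shares are rough, since reads came from transcript ends while RPKM divides by transcript length.

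Aqp5, the neighbour of Aqp2 on the chromosome, was too low for the fit of all samples. KD 72 h replicates 1 to 6 measured 1.99, 0.788, 2.42, 2.22, 0.579 and 1.28 RPKM, and those of NC 72 h 0, 0.178, 0.172, 0.331, 0.541 and 0.435 RPKM. All KD libraries were above all NC libraries, although by little in replicate 5, and the means of 1.55 ± 0.77 RPKM (SD, n = 6) and 0.296 ± 0.214 RPKM (SD, n = 5) differed in a two-sided exact permutation test (p = 0.011, n = 6 and 5). These rest on 56 and 10 reads in all. In a fit with no filter on low values the log2 difference of 1.97 did not pass over all entries (adjusted p = 0.053). In the larger set alone Aqp5 was called (2.74, adjusted p = 0.0069), but it entered that fit only through its KD 72 h libraries, and the exact permutation p there was 0.057 (n = 4 and 3). At 24 h Aqp5 was at 0 in 4 of 6 KD and 2 of 6 NC libraries, and the means of 0.133 and 0.512 RPKM did not differ beyond their spread (exact permutation p = 0.16, n = 6 and 6). Between the times in KD the means rose from 0.133 to 1.55 RPKM (exact permutation p = 0.0043, n = 6 and 6), although the lowest library of KD 72 h was below the highest of KD 24 h.

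Aqp3, which passes glycerol as well as water, split by set of libraries. KD 72 h replicates 1 to 6 measured 4.82, 3.29, 3.55, 5.16, 1.02 and 0 RPKM, and NC 72 h 0.585, 0.469, 0.455, 0.582, 0.238 and 0.766 RPKM. The 4 KD libraries of the larger set lay above all controls, while the 2 of the smaller set, replicates 5 and 6, gave one value above and one below them. Over all samples the means of 2.97 ± 2.06 and 0.527 ± 0.194 RPKM differed (two-sided exact permutation p = 0.041, n = 6 and 5), but with no filter the fit did not call the log2 difference of 1.43 (adjusted p = 0.40). In the larger set alone Aqp3 entered the fit through its high KD 72 h libraries only, with a difference of 2.42 (adjusted p = 2.6e-04), so that this value adds no support. The exact p rose to 0.067 without NC 72 h replicate 6, and to between 0.095 and 0.11 when replicate 1, 2, 3 or 4 was left out.

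At 24 h Aqp3 measured 0.108 to 1.17 RPKM in KD and 0 to 1.05 RPKM in NC, with no difference beyond the spread (exact permutation p = 0.72, n = 6 and 6). Aqp1 stayed at or below 0.892 RPKM in every library, from at most 10 reads. Its means were 0.433 RPKM in KD 72 h and 0.216 RPKM in NC 72 h (exact permutation p = 0.24, n = 6 and 5) and 0.249 and 0.119 RPKM at 24 h (exact permutation p = 0.10, n = 6 and 6). A difference of Aqp1 was not detectable at this depth. Of the 15 exact tests run on members below the filter, 5 gave a p under 0.05, and these p-values carry no adjustment. An unadjusted limma p under 0.05 was common among all entries. Between KD and NC it was found for 19371 of 52094 entries at 24 h and 19279 of 54252 at 72 h. Between the times it was found for 13408 of 53182 in KD and 12052 of 52806 in NC. The count of 5 therefore does not set the members apart.

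Aqp11 rose with time in the knockdown cells. KD 24 h replicates 1 to 6 measured 6.44, 5.03, 3.67, 4.47, 4.84 and 5.43 RPKM and those of KD 72 h 10.1, 13.6, 8.90, 8.38, 15.2 and 13.3 RPKM, with no overlap. The log2 difference of 1.02 ± 0.17 (SE) was called (adjusted p = 0.0016), beside 5.01% of 53182 entries called higher. In the control cells NC 24 h replicates measured 11.6, 8.37, 10.4, 9.59, 3.58 and 4.84 RPKM and NC 72 h replicates 15.6, 15.4, 11.9, 7.76, 10.6 and 22.6 RPKM. These overlapped, and their log2 difference of 0.84 ± 0.32 did not pass (adjusted p = 0.12), although it was called in 1 of the alternative fits (0.81). The change of Aqp11 with time was not shown to differ between knockdown and control cells (interaction 0.19 ± 0.37, SE, adjusted p = 0.88). The 2 lowest controls at each time were the libraries of the smaller set.

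Knockdown and control of Aqp11 overlapped at both times, with log2 differences of -0.65 ± 0.26 (SE) at 24 h (adjusted p = 0.088) and -0.47 ± 0.24 at 72 h (adjusted p = 0.18). Of its 3 entries tested at 24 h, AK006005 passed by a narrow margin (-0.75, adjusted p = 0.049). Within the larger set both differences were called, at -0.98 (adjusted p = 0.0055) and -0.95 (adjusted p = 0.0077). Within the smaller set they were -0.02 (adjusted p = 0.98) and 0.31 (adjusted p = 0.48). The call of a lower Aqp11 in KD therefore depends on which libraries are used.

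Among the other 6 aquaporins in the table, Aqp8, a channel that also passes ammonia and hydrogen peroxide, moved in the direction of Aqp2. KD 72 h replicates 1 to 6 measured 12.9, 12.6, 10.8, 21.4, 11.9 and 7.20 RPKM and NC 72 h 1.86, 1.49, 1.80, 3.63, 3.11 and 1.14 RPKM, with no overlap. Aqp8 (NM_001109045) rose by 2.24 ± 0.32 (SE) on the log2 scale (adjusted p = 3.0e-04). At 24 h KD replicates 1, 2 and 5 measured 12.5, 11.2 and 10.4 RPKM, above all controls, whereas replicates 3, 4 and 6 measured 3.95, 3.34 and 3.39 RPKM, among the controls at 2.09 to 5.07 RPKM. The difference of 0.90 ± 0.37 at 24 h did not pass (adjusted p = 0.088), but it passed without KD 24 h replicate 6 (1.10, adjusted p = 0.028). In the smaller set alone the difference at 72 h was 1.11 (adjusted p = 0.066). Aqp4 and Aqp6 had 0 reads in all libraries, and Aqp9, Aqp12 and Mip were at trace levels.

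On the chromosomes the members form 2 pairs of neighbours (GRCm38.p6). Aqp2 lies on chromosome 15 from 99579056 to 99584545 and Aqp5 6.48 kb further, from 99591028 to 99594829, with Aqp6 next. All of these are overlapped by the annotated long noncoding RNA Gm34765, and since the strand setting of the counting is not given, reads of the overlapping genes cannot be told apart. The genes that flank this cluster with an entry in the table were Faim2, at 0 in all groups but KD 72 h, where none of its entries went above 0.449 RPKM, and Racgap1, whose difference at 72 h did not pass (0.09, adjusted p = 0.89). Aqp7 lies on chromosome 4 from 41033074 to 41048237 and Aqp3 44.5 kb further, from 41092724 to 41098183. Aqp7 was called lower at 72 h while Nol6, the next gene after Aqp3 and a factor of ribosome assembly, was called higher (0.93 ± 0.24, SE, adjusted p = 0.014). Nfx1, next to Aqp7 on the other side, and Ube2r2 did not pass (adjusted p = 0.99, and 0.16, adjusted p = 0.21). Aqp1 lies on chromosome 6 from 55336299 to 55348555, and Aqp11 on chromosome 7 from 97726379 to 97738247, between Clns1a and Pak1, neither of which passed at 72 h (adjusted p = 0.81 and 0.46). Ghrhr and 6430584L05Rik, which follow Aqp1, did not pass the filter, and Gm38819, Mindy4, Gm5808, Gm25637, Mir3094, Rsf1os2 and Gm39050 were not analysed here.

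The promoters of Aqp2, Aqp5 and Aqp7 are shown, from 250 bases before to 50 bases after the RefSeq start of the gene, in its own direction, because the first 2 belong to neighbours that were higher in KD 72 h and the third to the gene that was lower. Both strands were searched for 9 motifs. The cAMP response element was sought whole, as TGACGTCA, and by its core, as TGACG, so that a match of the whole is also one of the core. The nuclear receptor motif was sought singly, as AGGTCA, and also in its tandem form, DR1. The E-box was taken as the palindrome CACGTG, the site of GATA factors as GATAA, and the TATA box by its usual letters TATAAA. The AP-1 site was taken as TGANTCA and that of C/EBP factors as TTNNGNAA, where N is any base. Capitals mark matches to these motifs. Aqp2 (chr15:99578806-99579105, plus strand) held the CRE core, a GATA match and an E-box.
Aqp2 promoter: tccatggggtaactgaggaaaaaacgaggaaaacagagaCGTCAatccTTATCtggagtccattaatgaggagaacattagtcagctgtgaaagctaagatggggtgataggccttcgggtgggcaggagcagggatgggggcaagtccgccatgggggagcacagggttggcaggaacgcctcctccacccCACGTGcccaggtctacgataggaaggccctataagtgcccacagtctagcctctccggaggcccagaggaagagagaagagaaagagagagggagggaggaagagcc
Aqp5 (chr15:99590778-99591077, plus strand) held the E-box alone.
Aqp5 promoter: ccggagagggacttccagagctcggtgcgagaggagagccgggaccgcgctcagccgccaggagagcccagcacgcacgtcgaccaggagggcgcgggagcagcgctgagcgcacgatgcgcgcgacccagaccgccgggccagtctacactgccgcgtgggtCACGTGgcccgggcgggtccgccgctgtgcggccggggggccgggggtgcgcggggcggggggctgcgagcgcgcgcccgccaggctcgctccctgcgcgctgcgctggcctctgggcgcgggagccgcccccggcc
Aqp7 (chr4:41048087-41048386, minus strand, the window of the more upstream of 2 starts) held a single nuclear receptor motif, a GATA match and a C/EBP match.
Aqp7 promoter: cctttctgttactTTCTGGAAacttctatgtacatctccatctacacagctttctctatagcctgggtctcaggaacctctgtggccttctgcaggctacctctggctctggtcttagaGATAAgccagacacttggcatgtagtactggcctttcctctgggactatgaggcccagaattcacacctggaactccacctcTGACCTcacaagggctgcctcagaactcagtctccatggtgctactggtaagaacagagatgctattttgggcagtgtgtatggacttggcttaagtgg

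An E-box stood in the windows of Aqp2, Aqp5 and Aqp8 and in none of those of Aqp1, Aqp3, Aqp7 and Aqp11, while 7.15% of 32851 promoters of this length held one. The CRE core stood in the window of Aqp2 alone among these genes, against 20.8% of all promoters, and the single nuclear receptor motif in those of Aqp7 and Aqp11, against 16.3%. Its tandem form stood in none of these windows, against 0.0396% of all promoters. A GATA match stood in the windows of Aqp2 and Aqp7, against 25.4% of all promoters, and a C/EBP match in those of Aqp1 and Aqp7, against 40.7%. The window of the other start of Aqp7 held no GATA or C/EBP match, only matches to the nuclear receptor motif. The windows of Aqp5 and Aqp7 were 79.7% and 49.7% G and C. A match is a description of the letters and says nothing of a factor at the site.

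The genes with which Aqp7 works were counted next, from lists drawn up with earlier results known. Of 18 genes of glycerol release and use 17 were in the table and 16 were tested, and 9 fell, none rose and 7 did not pass at 72 h, while at 24 h 5 fell, 1 rose and 10 did not pass. Their median log2 difference was -0.53 at 72 h and -0.40 at 24 h, beside -0.01 over all genes at each time, and 23.3% and 22.8% of all genes were called. Mgll, the lipase that frees the last fatty acid from glycerol, went from 123 ± 13 RPKM (SD, n = 5) in NC 72 h to 84.2 ± 21.8 RPKM (SD, n = 6) in KD 72 h and fell by 0.82 ± 0.13 (SE) on the log2 scale (adjusted p = 5.7e-04). G0s2, an inhibitor of the first lipase of the chain, fell by 0.89 (adjusted p = 3.2e-04), Agpat2 and Dgat1, which build triglycerides, by 1.24 (adjusted p = 0.0024) and 0.57 (adjusted p = 0.0061), and Gpd1, which links glycerol 3-phosphate to glycolysis, by 0.64 (adjusted p = 0.0033). Thus members that release glycerol and members that bind it fell side by side. The glycerol kinase entry Gyk did not pass (0.23, adjusted p = 0.34).

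These counts moved with scaling and with the set of libraries. At 72 h values as deposited left 5 of the 16 genes lower and 1 higher, the larger set gave 11 lower of 17, and the smaller set gave 1 higher and none lower. Scaling moved the median log2 difference of all entries at 72 h from 0.25 to 0.01. The lower level of Aqp7 kept its call on the deposited values (-0.60, adjusted p = 0.0028).

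For cell volume and the osmotic response, 14 of 18 genes were tested, with 4 higher, 3 lower and 7 not called at 72 h and 3 higher, 3 lower and 8 not called at 24 h, beside 23.3% and 22.8% of all genes called. Akr1b3, the aldose reductase that makes the osmolyte sorbitol, stood out, from 6.66 ± 1.45 RPKM (SD, n = 5) in NC 72 h to 69.1 ± 11.9 RPKM (SD, n = 6) in KD 72 h. It rose by 3.11 ± 0.18 (SE) on the log2 scale (adjusted p = 4.8e-07), and by 0.99 ± 0.25 at 24 h (adjusted p = 0.011). The kinases Sgk1 and Wnk1, which act on ion transport, rose by 0.68 (adjusted p = 0.021) and 0.76 (adjusted p = 0.0061) at 72 h. Stk39, a kinase downstream of Wnk1, fell by 1.05 (adjusted p = 0.011). Nfat5, the transcription factor of the osmotic response, did not pass at 72 h (0.12, adjusted p = 0.74). On deposited values 5 of these genes were higher and 1 lower.

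Of the 23 genes of the vasopressin and cAMP route to Aqp2, 19 were tested at 72 h, with 4 higher, 2 lower and 13 not called, beside 23.3% of all genes called. Avpr2, the vasopressin receptor of the kidney, was at 0 in all KD libraries of both times and in all of NC 72 h. In NC 24 h it reached at most 0.166 RPKM. Prkar1a, a regulatory subunit of protein kinase A, rose from 48.9 ± 0.7 RPKM (SD, n = 5) to 101 ± 7 RPKM (SD, n = 6), or by 0.79 ± 0.10 (SE) on the log2 scale (adjusted p = 1.1e-04). Pde4b, which breaks down cAMP, rose by 1.86 ± 0.28 (adjusted p = 4.0e-04), and Gnas, which codes for the stimulatory G protein, by 0.42 (adjusted p = 0.0024). Akap7, which anchors the kinase, and Prkaca, its catalytic subunit, fell by 0.74 (adjusted p = 0.036) and 0.40 (adjusted p = 0.040), and both lost the call on deposited values (adjusted p = 0.11 and 0.40). At 24 h 17 genes were tested, with 4 higher, 1 lower and 12 not called, beside 22.8%.

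**Figure D4:**
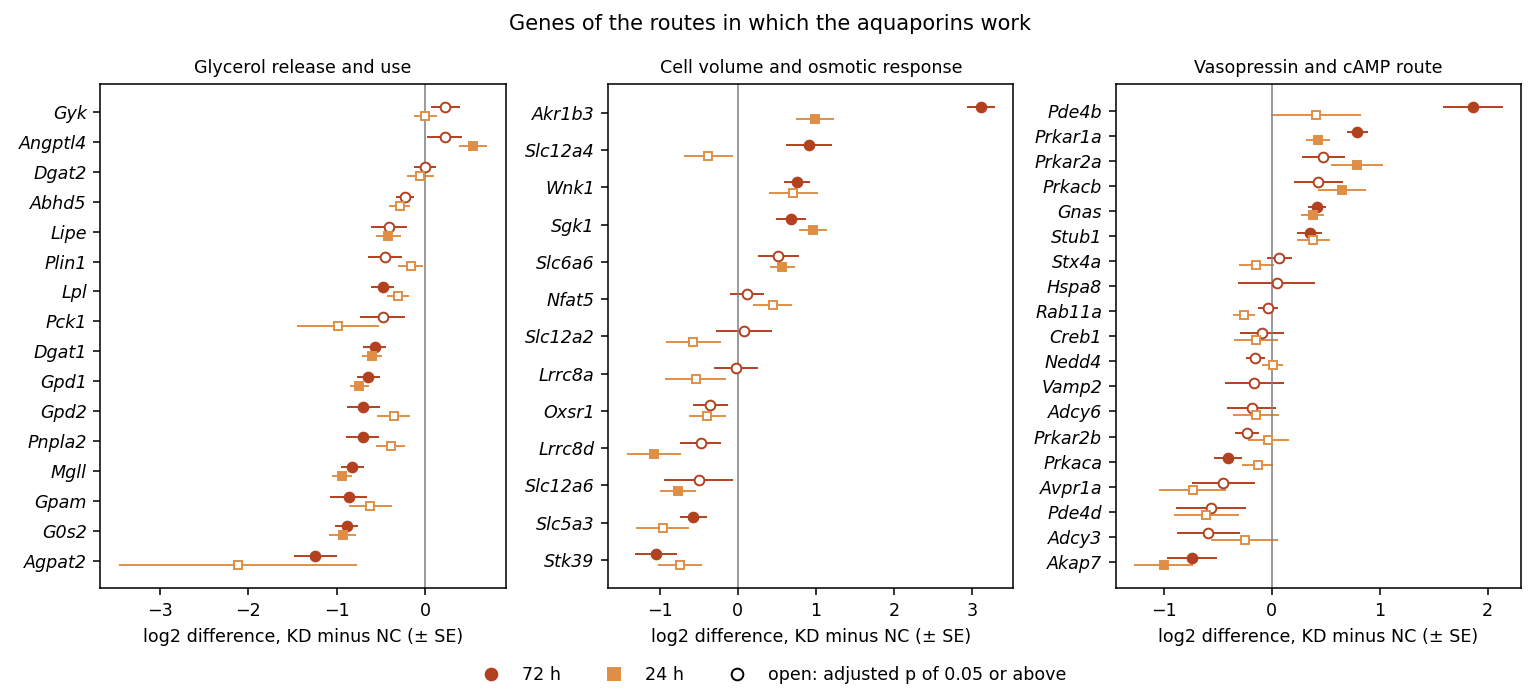
The plot of the pathway genes gives, for the genes tested except 1 of the osmotic list that is not reported here, the fitted log2 difference, KD minus NC, on the horizontal axis with bars of 1 SE, for 72 h (circles) and 24 h (squares), filled where the adjusted p is under 0.05. In the glycerol list the 9 genes called at 72 h all lie left of 0, and Akr1b3, at 3.11, lies furthest right in the osmotic list.

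Markers of other cell types were set beside these values. Of 12 markers of the principal cell of the kidney collecting duct, which is known for Aqp2, Scnn1b, Fxyd4 and Kcnj1 were at 0 in all libraries, and the 12 together summed to 1.77 to 6.23 RPKM in KD 72 h and 0.345 to 1.29 RPKM in NC 72 h. The transcription factor Gata3, one of them, was higher in KD at both times (1.96 ± 0.43, SE, adjusted p = 0.0049 at 72 h). Hsd11b2, the other marker of this list tested at 72 h, averaged 2.19 RPKM in KD 72 h and 0.411 RPKM in NC 72 h but did not pass (2.06, adjusted p = 0.12). The 12 epithelial markers summed to 120.1 to 176 RPKM in KD 72 h and 17.8 to 26.0 RPKM in NC 72 h, of which Krt19, with 150 ± 24 RPKM (SD, n = 6) and 21.5 ± 3.1 RPKM (SD, n = 5), made up nearly all. Cldn4, a tight junction protein, measured 1.10 to 4.07 RPKM in KD 72 h and 0 to 0.142 RPKM in NC 72 h. Krt14, Krt8 and Krt5 averaged 0.392, 0.231 and 0.173 RPKM in KD 72 h and were at 0 in NC 72 h, Cdh1 averaged 0.0346 RPKM and 0, and Epcam was at 0 in both groups. Markers of endothelium summed to 2.77 to 6.43 RPKM in KD 72 h and 2.02 to 4.90 RPKM in NC 72 h, those of red blood cells to at most 0.164 RPKM, and those of macrophages to 7.38 to 15.4 and 9.34 to 30.0 RPKM. Among the last, Csf1r rose at 72 h (1.23, adjusted p = 0.0031) and Lyz2 fell (-3.68, adjusted p = 6.5e-04). The 7 mesothelial markers, of which 2 were at 0 everywhere and Krt19 is one, summed to 119 to 173 and 19.0 to 37.3 RPKM. Nearly all of the sum in KD 72 h was Krt19. Wt1 went the other way, with means of 1.52 RPKM in KD 72 h and 5.43 RPKM in NC 72 h, but did not pass (-1.50, adjusted p = 0.079). Msln averaged 0.922 RPKM in KD 72 h and 0 in NC 72 h. The 8 fat cell markers summed to 27581 to 40564 RPKM in KD 72 h and 33551 to 43640 RPKM in NC 72 h, and the 5 brite markers to 425 to 847 and 1212 to 1978 RPKM. At 72 h 4 of the 7 fat cell markers tested and 5 of 5 brite markers were called lower in KD, beside 13% of all genes. Their part in the aquaporin values was not tested.

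Genes with a pattern most like that of Aqp2 over the 23 samples were Cyp2j6, Trim29, Serpinb9b, Akr1b8 and Slc5a7. Their standardised log2 values differed from those of Aqp2 by a root mean square of 0.41 to 0.48, against a median of 1.38 over 12701 genes. Akr1b8, an aldo-keto reductase, averaged 326 scaled RPKM in KD 72 h and 79.2 in NC 72 h. For Aqp7 the nearest were Idh1, B3galt1, AK038192, A030001D16Rik and 1700021F05Rik, at 0.24 to 0.36 against a median of 1.36. Idh1, which makes NADPH in the cytosol, averaged 507 scaled RPKM in KD 72 h and 900.3 in NC 72 h. Such likeness was measured over the same libraries, carries no test, and what lies behind it was not tested.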

How the data were processed

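Total RNA was read in 24 libraries by bulk RNA barcoding and sequencing (BRB-seq), which counts tags from the 3′ ends of transcripts. Per the study's methods, the authors aligned the tags to NCBI RefSeq transcripts and tested them with DESeq2 in Genomatix, and they deposited RPKM values for 168326 transcript entries in all samples. The software version and genome build are not given in the sources used here, nor is the handling of strand, and entries of a gene can share reads. RPKM divides reads by transcript length and by mapped reads, and depth was recovered from the steps of the deposited RPKM values, which gave whole reads (within 0.12) for 74.4 to 95.6% of low values.

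From the RPKM values, limma 3.58.1 (R 4.3.3) was fitted to log2(RPKM + 0.1) after trimmed-mean scaling (30% of ratios and 5% of levels trimmed), for entries with 10 reads at the median depth of 3945771 in as many samples as the smaller group and 15 reads in all, over the 23 samples left once the near-identical pair was averaged. A log2 difference on this scale understates the change of low genes. P-values were adjusted over all entries, and 0.05 was the threshold. Members below the filter were compared by exact permutation of deposited RPKM. The fit was tested on simulated data with independent libraries and no sets. The changed genes had ample reads and smaller changes than Aqp2, so this test does not bear on Aqp2 or on fits within a set. Python 3.11.15, numpy 2.4.6, pandas 2.3.3 and matplotlib 3.10.9 were used.

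The members and gene lists were chosen with earlier results of these data known. The text names all members, the 5 genes of each pathway list with the smallest adjusted p at 72 h (1 of the osmotic list is counted but not reported here), the nearest 2 annotated genes on each side of a member, and the 5 genes most like Aqp2 and Aqp7. Gyk, Nfat5, Avpr2 and the markers named were singled out after their values were seen, as were the promoter motifs. Positions and promoters are from RefSeq (GRCm38.p6), and coding stretches from GENCODE M21. Alternatives were no scaling, another pseudocount (1), no filter, 1 entry per gene, a replicate block, a robust fit, either set of libraries alone, both libraries of the pair, and leaving out replicates. Replicate numbers did not pair the samples.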

Additional observations from a re-analysis of the deposited data

Results flagged for a closer look

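In 3 of 27 groups of 5 or 6 samples, 1 value stood apart from the rest by Dixon's criterion. Chance alone gives this in about 1 of 20 groups of normally distributed values. That rate does not hold for groups with few reads, as those of Aqp2 and Aqp5 below. Aqp2 was at 0.557 RPKM in NC 24 h replicate 5, with the nearest other library at 0.169 RPKM, and both values come from at most 4 reads. Aqp5 was at 0.665 RPKM in KD 24 h replicate 1, with the nearest at 0.130 RPKM, again from at most 4 reads. Aqp7 was at 27.3 RPKM in NC 72 h replicate 6, below the nearest at 30.4 RPKM, and without that library its knockdown difference at 72 h was -0.89 (limma, adjusted p = 0.0023).

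The knockdown difference of Aqp2 was larger at 72 h than at 24 h by 4.32 on the log2 scale (limma interaction, adjusted p = 0.011). Aqp2 entered this fit only through KD 72 h, the group where it was high, so that the p-value adds no support. The call was also lost when some replicates were left out. Aqp2 was above 0 in 6 of 6 KD and 0 of 6 NC libraries at 72 h, and in 4 of 6 and 2 of 6 at 24 h.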

How the results depend on the processing

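The difference of Aqp7 at 72 h kept its direction and its call in all 16 alternatives, between -0.60 without scaling and -1.26 in the smaller set. The number of members called at 24 h, 1, became 2 in the larger set and 0 in the smaller set, and ranged from 0 to 2 when replicates were left out, since Aqp7 lost its call without replicate 1 and Aqp11 gained one without replicate 5 (-0.85, adjusted p = 0.036). At 72 h the 2 calls became 5 in the larger set (where Aqp2, Aqp3 and Aqp5 entered only through KD 72 h), 1 in the smaller set and 1 with both libraries of the pair kept, and ranged from 1 to 2 with replicates left out, where Aqp2 no longer passed the filter without replicate 3. For NC 72 h against NC 24 h the 1 call became 0 in the smaller set and ranged from 0 to 1, with the losses without replicates 1 and 6. For KD 72 h against KD 24 h the 1 call became 3 with no filter, 3 in the larger set, 2 in the smaller set and 2 without KD 24 h replicate 6, the shallowest library, and ranged from 1 to 2, where Aqp2 passed the filter and was called without replicate 6. The interaction call, 1, became 0 with both libraries of the pair kept and 0 in the smaller set, and ranged from 0 to 1, lost without replicate 1, 2 or 4 and not tested without replicate 3. Of the 15 exact tests, 5 had a p under 0.05, and 3 to 5 did with replicates left out. A replicate block left 0 calls for NC 72 h against NC 24 h (Aqp7 -0.40, adjusted p = 0.078) and changed no other call of a member. Same-numbered samples did not deviate together (mean correlation -0.051 at 24 h and 0.0079 at 72 h). Over all entries the interaction gave 116 calls, 28 with the block, 771 without scaling, 242 with a pseudocount of 1, 865 and 1849 in the larger and smaller sets, 182 with both libraries of the pair, 45 with 1 entry per gene and 5 to 127 with replicates left out. Without scaling 80.9% of the calls at 72 h were higher in KD, against 46.2%. The causes of these shifts were not tested, beyond the changed filter where named. The alternatives to the exact tests and the fit without KD 24 h replicate 6 were chosen after seeing the data. The planned comparison of protein alignments was not run, as no protein sequences were used here. Depth limits what can be said of Aqp1, Aqp3 and Aqp5, which had few reads per library.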
